A study of Rattus norvegicus with 4 samples.

Results

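Splicing factor genes are described here in eye and in retina from Long Evans rats of wild-type genotype. The genes were taken by symbol: Prpf with a number, Snrp and Snrnp, Sf3a and Sf3b with a number, Srsf or its older form Sfrs with a number, and U2af1, U2af2 and Rp9. The rule found 52 genes among the 14485 gene names with a value, and U2af1 and U2af2 were not analysed here. The labels name 4 samples, with 2 technical replicates of each tissue, and RNA of 5 rats was pooled for a library. Both groups share strain and genotype, and no age is stated for the rats. Technical replicates of a pool carry no spread between animals. Each tissue had 1 column of values, called its library here, so differences carry no p-value and no check against replicates. Whether a column joins both replicates is not stated. All 4 descriptions speak of retina mRNA, whereas titles and tissue labels set eye apart from retina. Values are taken as RPKM, in which reads are divided by the length of the gene and by the depth of the library. That unit was inferred from the values. The totals behind them were 28071917 reads for eye and 51944762 for retina.

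The spliceosome removes introns from pre-mRNA. It is built from small nuclear ribonucleoproteins (snRNPs), each made of a small RNA, a shared ring of Sm proteins and proteins of its own. U1 recognises the start of an intron and U2 its branch point, after which the joined U4/U6 and U5 particle, the tri-snRNP, enters and is rearranged for catalysis. SR proteins bind exons and help to select splice sites. All cells that splice use this machinery, yet inherited changes in several tri-snRNP genes are known in humans for retinitis pigmentosa, a disease in which rods degenerate.

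The libraries carried the markers of their labels. Of 18 lens genes with a value, 17 exceeded a fold of 2 towards eye, and the list made up 35.0% of the summed RPKM in eye and 0.586% in retina. Of 12 rod photoreceptor genes, 7 exceeded a fold of 2 towards retina, and the median log2 fold was -1.02. Genes of skeletal muscle (8 of 8) and of corneal epithelium (4 of 5) also exceeded a fold of 2 towards eye. In these bulk libraries, fewer cells of a type and less RNA per cell cannot be told apart.

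Most splicing factor genes differed little between the libraries. The fold was log2((eye + 0.1) / (retina + 0.1)), and a gene was tested when at least 1 RPKM in either library and called at a fold of at least 2. Of 51 tested genes, 4 (7.84%) were called higher in the eye library and 2 (3.92%) lower, against 17.8% and 7.95% of all 13259 tested genes. The 4 higher genes were Snrpe, Snrpd1, Snrpg and Snrpb2, and the 2 lower genes were Snrnp70 and Prpf40b. The remaining 45 tested genes were not called, and 37 of the 51 (72.5%) lay within a fold of 1.5, against 51.5% of all tested genes. Snrpc was below the minimum in both libraries. The median log2 fold of the 51 genes was -0.15, with 20 above 0 and 31 (60.8%) below. That of all tested genes was -0.01, with 50.7% below 0. Counts of genes above or below 0 in the groups described later stand beside that 50.7%.

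The balance of these calls depended on how the libraries were scaled. The values as deposited gave 4 higher and 2 lower genes. With equal summed values, a scaling that moved log2(eye/retina) by -0.64, 1 gene (Snrpe) was higher and 16 were lower. Of the tested splicing factor genes, 7 then lay above 0 and 44 below. Over all tested genes, 1363 were then higher and 4232 lower, against 2366 and 1054 as deposited. With lens reads taken out of the read totals, which moved log2(eye/retina) by 0.19, 5 were higher (Snrpf joined) and 1 (Snrnp70) was lower. The majority below 0 was then lost, with 27 splicing factor genes above 0 and 24 below. Over all tested genes, 2861 were then higher and 560 lower. Such a scaling shifts all genes alike, so the median relative to that of all tested genes, -0.14 as deposited, could hardly move with it and says nothing about stability.

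**Figure D1:**
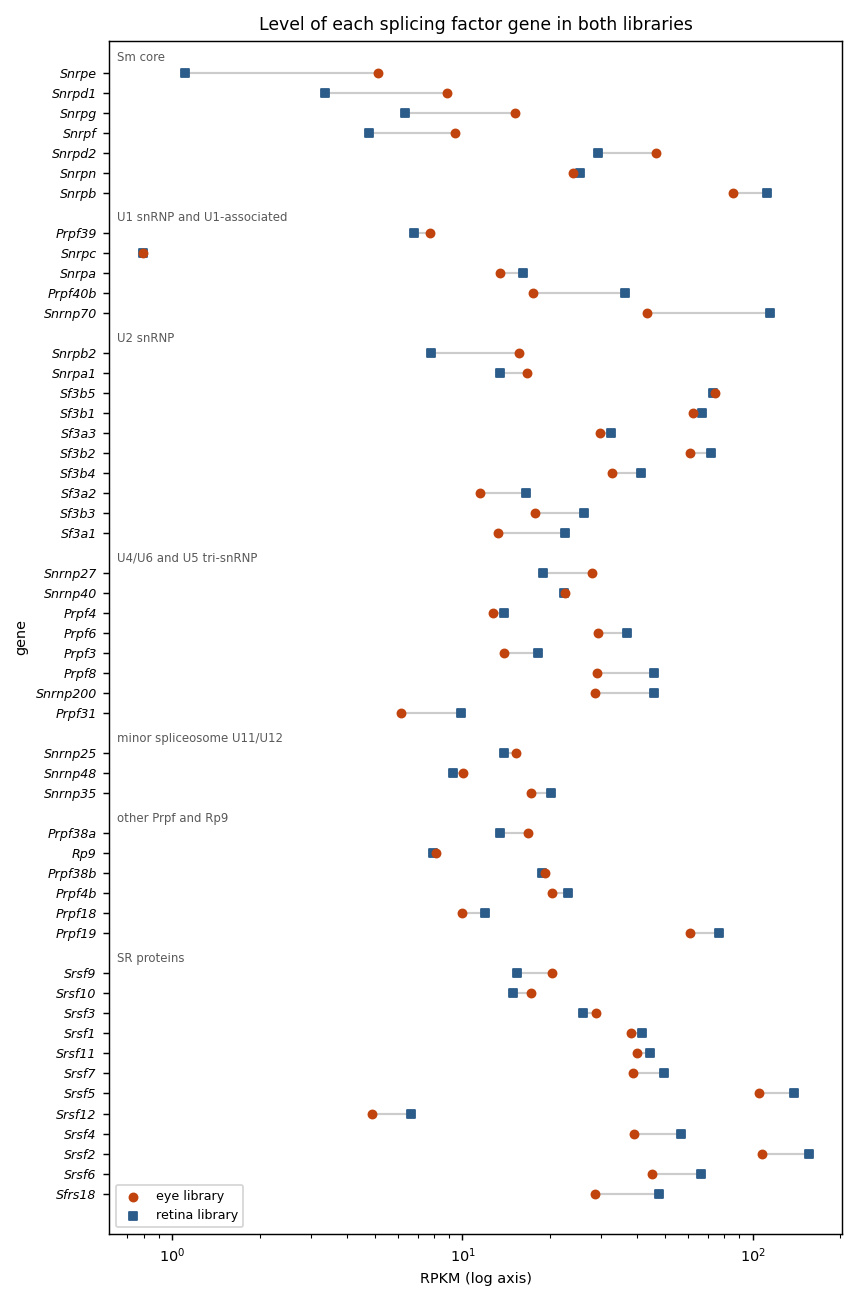
RPKM of 51 splicing factor genes in the eye library (circles) and the retina library (squares) on a log axis, grouped by role and ordered by fold within a role, with 1 value per library. The genes Snrpe, Snrpd1, Snrpg and Snrpf stand to the right in eye, Snrnp70 and Prpf40b to the left, and most other pairs of points lie close together.

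The promoters of the 6 called genes are shown because these genes passed a fold of 2 in the values as deposited. Other settings called other sets of genes. They are RefSeq sequences of the rat assembly GRCr8, 250 bases before to 50 after the start, and 50 of the 52 genes matched an entry, with Sfrs18 found under its current symbol Pnisr. Capitals mark matches, on either strand, to the letters TATAAA of a TATA box, CCAAT of a CCAAT box, CCGGAAG of an ETS factor site or GGGCGG of a GC box. The first 4 sequences belong to genes higher in the eye library.
Snrpe (chr13:47609202-47609501, minus strand): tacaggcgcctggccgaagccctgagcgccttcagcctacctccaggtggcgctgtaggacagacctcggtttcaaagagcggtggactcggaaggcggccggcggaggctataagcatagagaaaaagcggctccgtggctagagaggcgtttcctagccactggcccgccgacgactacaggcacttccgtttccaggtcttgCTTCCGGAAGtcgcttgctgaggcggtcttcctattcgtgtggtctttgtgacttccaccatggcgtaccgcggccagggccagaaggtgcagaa
Snrpd1 (chr18:1969424-1969723, plus strand): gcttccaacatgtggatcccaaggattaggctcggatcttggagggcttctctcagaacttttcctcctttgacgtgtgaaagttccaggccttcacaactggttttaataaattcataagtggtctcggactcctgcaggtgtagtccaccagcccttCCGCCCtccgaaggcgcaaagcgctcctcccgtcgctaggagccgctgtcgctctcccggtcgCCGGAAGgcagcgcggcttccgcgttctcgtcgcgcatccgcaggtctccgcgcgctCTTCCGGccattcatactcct
Snrpg (chr4:120369461-120369760, plus strand): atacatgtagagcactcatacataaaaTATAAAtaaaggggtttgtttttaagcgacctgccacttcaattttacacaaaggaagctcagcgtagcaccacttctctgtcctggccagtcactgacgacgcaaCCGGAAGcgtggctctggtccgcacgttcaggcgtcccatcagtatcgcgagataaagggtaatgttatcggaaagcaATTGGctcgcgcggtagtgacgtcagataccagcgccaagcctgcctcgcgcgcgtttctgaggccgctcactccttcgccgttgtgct
Snrpb2 (chr3:150852584-150852883, plus strand): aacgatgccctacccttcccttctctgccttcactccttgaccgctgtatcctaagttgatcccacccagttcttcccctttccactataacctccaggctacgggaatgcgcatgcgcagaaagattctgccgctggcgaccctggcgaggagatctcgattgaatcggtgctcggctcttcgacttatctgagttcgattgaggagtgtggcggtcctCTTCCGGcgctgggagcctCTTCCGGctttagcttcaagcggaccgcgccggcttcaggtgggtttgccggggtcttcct
The other 2 belong to genes lower in the eye library.
Snrnp70 (chr1:105012802-105013101, minus strand): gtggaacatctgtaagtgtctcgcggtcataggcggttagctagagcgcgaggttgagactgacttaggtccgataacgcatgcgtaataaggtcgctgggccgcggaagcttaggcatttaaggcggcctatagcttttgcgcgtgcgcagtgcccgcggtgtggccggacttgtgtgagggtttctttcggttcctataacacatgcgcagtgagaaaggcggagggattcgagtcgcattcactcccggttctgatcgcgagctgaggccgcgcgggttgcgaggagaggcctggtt
Prpf40b (chr7:132318418-132318717, plus strand): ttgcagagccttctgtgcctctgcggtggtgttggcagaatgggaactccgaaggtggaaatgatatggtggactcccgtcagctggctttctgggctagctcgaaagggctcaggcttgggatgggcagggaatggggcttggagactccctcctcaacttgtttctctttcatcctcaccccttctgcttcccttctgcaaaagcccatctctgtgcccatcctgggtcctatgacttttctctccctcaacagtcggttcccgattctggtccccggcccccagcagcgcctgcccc

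All 4 promoters of the higher genes held the ETS letters and neither promoter of the lower genes did. In Snrpe 2 matches overlap in 1 palindrome. The letters also occurred in 20 of the 50 splicing factor promoters (40%), in 15.3% of the 10030 promoters of genes with a value in the files and in 9.22% of all 27457. Among the promoters of genes that were not called were Prpf6, Snrnp200, Sf3a1 and Srsf4 with the letters, and Snrpf and Snrpd2 without them. A TATA box match was found in 4 of the 50 (8%, against 7.16%), a CCAAT box in 19 (38%, against 36.9%) and a GC box in 25 (50%, against 60.4%), each beside the share of the 10030. The SR protein promoters had a median of 32.5 CpG dinucleotides in the window, against 23 for all 50 and 20 for promoters of genes with a value. Such matches describe the letters only.

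Of the 7 Sm core genes 5 lay above 0, whereas 29 of the 44 other tested splicing factor genes lay below it. Sm core genes encode proteins of the ring that all major spliceosomal snRNPs share, apart from that of U6. Snrpe had 5.11 RPKM in eye and 1.10 RPKM in retina, 4.63-fold higher in eye (95% counting interval 2.53 to 8.85). Snrpd1 had 8.82 RPKM in eye and 3.36 RPKM in retina, 2.63-fold higher (2.12 to 3.27). Snrpg had 15.1 RPKM in eye and 6.33 RPKM in retina, 2.39-fold higher (1.61 to 3.56). These 3 of the 7 genes were called, against 17.8% of all tested genes called higher. Their intervals, computed from recovered reads, cover counting error only and compare 2 libraries, not tissues. The values of Snrpe stood for as few as 40 reads in eye and 16 in retina, those of Snrpg for 62 in eye and 48 in retina. Snrpf lay just short of the threshold, with 9.44 RPKM in eye and 4.76 RPKM in retina, a 1.98-fold difference (1.41 to 2.79). Snrpd2 had 46.4 RPKM in eye and 29.3 RPKM in retina, a 1.58-fold difference, and was not called.

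The larger Sm genes Snrpb and Snrpn did not share that difference. Snrpb encodes the B subunit of the ring, and Snrpn, an imprinted gene, encodes a close relative of it that is most abundant in neurons. Snrpb had 86.0 RPKM in eye and 112 RPKM in retina, 1.31-fold lower in eye (1.25 to 1.37) and not called. Snrpn had 24.0 RPKM in eye and 25.4 RPKM in retina, and its interval held a fold of 1. The level of Snrpb per length was thus 3.58 times that of Snrpn in eye and 4.41 times in retina. These genes are close paralogs, and how reads shared between them were counted is not stated. As a group, the 7 Sm genes had a median log2 fold of 0.97, against -0.23 for the 44 other tested splicing factor genes and -0.01 for all tested genes. The 5 small Sm genes are those of the 7 above 0 in the values as deposited, so that sign carries no further weight. They were also the 5 shortest of the 7 Sm genes by the recovered lengths described below. They stayed above 0 in each scaling run, although with equal sums Snrpd2 was at 0.02 and only Snrpe remained past a fold of 2.

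Products of the ring are assembled together, yet the levels of the 7 genes spread widely. These 7 are not a complete ring, since they hold both Snrpb and its close relative Snrpn, and Snrpd3 was not among the 52 genes. In eye the highest of the 7 (Snrpb) was 16.8 times the lowest (Snrpe) per length, and in retina the ratio was 102. The middle Sm gene ranked near percentile 66.4 of all genes in eye and 44.2 in retina. The table of the rat assembly GRCr8 lists symbols of pseudogene copies (the gene's symbol with -ps and a number) for 22 of the 52 genes. There were 8 for Snrpg, 3 for Snrpe and Snrpd2, 2 for Snrpb and Snrpf, 4 for Snrpn, and 1 for Snrpd1. Reads shared with such copies may have been counted or left out, so single values of these genes are uncertain. The 21 tested genes with such copies had a median log2 fold of 0.00 and the 30 without had -0.21; the part of these copies in the fold was not tested.

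Gene model length moved with the fold, in these genes and in the whole table. A length could be recovered with the reads as the smallest that fits both values, and the true length may be a multiple of it. For the Sm genes it ran from 146 to 1147 bases, and the 4 genes called higher all had one under 1000 bases, as did 14 of the 52. Tested genes of the whole table with a length of 100 to 499 bases had a median log2 fold of 0.32, and 27.1% were higher in eye. For 500 to 999 bases these were 0.27 and 25.3%, for 1000 to 1999 bases 0.04 and 18.5%, for 2000 to 3999 bases -0.11 and 15.1%, and from 4000 bases -0.27 and 12.4%. The steps were smaller among tested genes with 30 reads or more in both libraries. There, 100 to 499 bases gave 0.26 and 19.7%, 500 to 999 bases 0.19 and 18%, and from 4000 bases -0.29 and 10.9%. The splicing factor genes followed the same order, with medians of 0.35, 0.34, -0.18, -0.28 and -0.45 over 8, 6, 18, 12 and 8 genes. Of these genes, 2 of 8 (25%) and 2 of 6 (33.3%) in the 2 shortest ranges were higher in eye, and 0 in the longer ranges. Across the 52 genes the rank correlation of fold and length was -0.47, across the 45 outside the Sm core -0.32, and across 12865 tested genes of the table -0.18. All points share the same 2 libraries, and genes are not replicates. Without the 14 short genes, 0 were higher and 1 (Snrnp70) was lower, with a relative median of -0.25. The part of length in these differences was not tested.

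**Figure D2:**
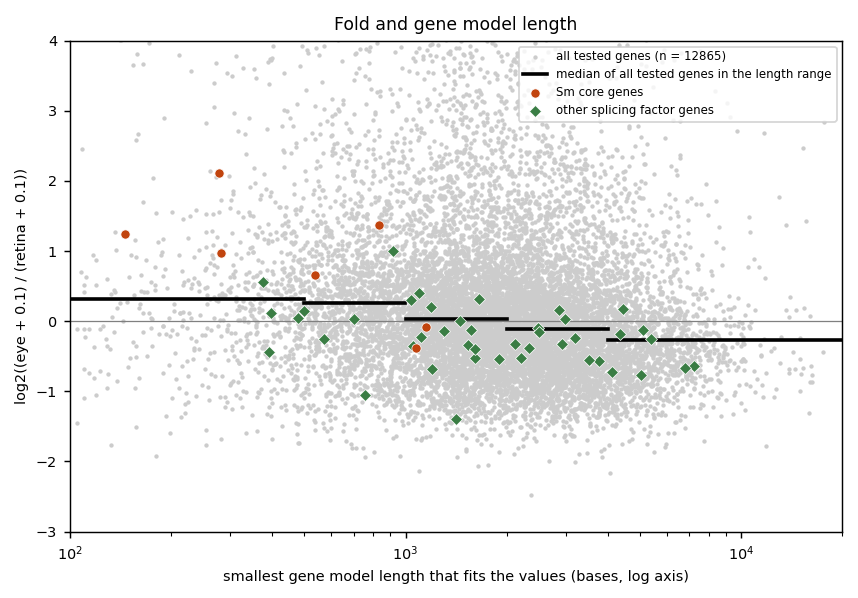
Log2((eye + 0.1) / (retina + 0.1)) against the smallest gene model length that fits the values (log axis) for Sm core genes (circles), other reported splicing factor genes (diamonds) and 12865 tested genes of the table (small grey points), with black bars at the median of all tested genes in each length range. The medians of all genes step down from 0.32 to -0.27 with length, and Snrpe, Snrpd1 and Snrpg lie far above them; 431 grey points fall outside the axes.

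U1 genes held both genes called lower, 2 of 5 tested, against 7.95% of all tested genes. U1 is the particle that pairs with the start of an intron. Snrnp70, its 70K protein, had 43.4 RPKM in eye and 114 RPKM in retina, a 2.64-fold lower value in eye (2.51 to 2.78). It ranked at percentile 89.3 of all genes in eye and 97.6 in retina. It was called lower in each scaling run and with 1 added to each value. Snrpa, the A protein of U1, had 13.5 RPKM in eye and 16.2 RPKM in retina and was not called, so Snrnp70 stood at 3.21 times the level of Snrpa in eye and 7.08 times in retina. Snrpc, the C protein, was at 0.794 RPKM in eye and 0.790 RPKM in retina, under the minimum, and the table lists 10 pseudogene symbols for it.

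Prpf40b, a U1-associated protein related to a yeast factor that bridges the ends of the intron, was the other gene called lower. It had 17.6 RPKM in eye and 36.3 RPKM in retina, 2.07-fold lower in eye (1.85 to 2.33). With lens reads taken out of the totals Prpf40b was not called (log2 fold -0.85). Prpf39, also associated with U1, had 7.71 RPKM in eye and 6.82 RPKM in retina. Pairs of genes whose levels are set against each other within a library were chosen after their values were seen.

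U2 genes were mostly a little below 0 in the values as deposited. Of 10, 1 was called higher and 0 lower, against 17.8% and 7.95% of all tested genes. Snrpb2, which binds the U2 RNA, had 15.7 RPKM in eye and 7.77 RPKM in retina, 2.02-fold higher in eye (1.75 to 2.33). It lay at the threshold: with 1 added to each value, with the trimmed mean and with lens genes out of the sums it was not called. Its partner Snrpa1, the A' protein, had 16.6 RPKM in eye and 13.5 RPKM in retina, so that Snrpb2 was at 0.942 times the level of Snrpa1 in eye and 0.575 times in retina.

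The SF3A and SF3B complexes hold U2 at the branch point, and none of their genes was called. Sf3b1, the large scaffold that clamps the branch helix, had 62.5 RPKM in eye and 66.9 RPKM in retina. Sf3b2 had 60.7 RPKM in eye and 71.7 RPKM in retina, and Sf3b5, the smallest of these genes by length, 74.3 RPKM in eye and 72.9 RPKM in retina. These 3 were the most abundant of the U2 genes in both libraries. Sf3b4 had 32.6 RPKM in eye and 41.2 RPKM in retina, and Sf3a3 29.8 RPKM in eye and 32.6 RPKM in retina. Sf3b3 had 17.8 RPKM in eye and 26.3 RPKM in retina, and Sf3a2 11.5 RPKM in eye and 16.6 RPKM in retina. Sf3a1 differed most among them, with 13.3 RPKM in eye and 22.6 RPKM in retina, 1.71-fold lower in eye (1.62 to 1.80). The 10 U2 genes had a median log2 fold of -0.18, with 7 below 0. Taking lens reads out of the totals moved log2(eye/retina) by 0.19, so the side of 0 of this group depended on the scaling.

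Tri-snRNP genes lay below 0 in 6 of 8 cases, and 0 were called, against 17.8% of all tested genes higher and 7.95% lower. Prpf8, the large protein at the catalytic centre, had 29.2 RPKM in eye and 45.6 RPKM in retina, 1.56-fold lower in eye (1.52 to 1.61). Snrnp200, the helicase that unwinds U4 from U6, had 28.7 RPKM in eye and 45.7 RPKM in retina, 1.59-fold lower (1.54 to 1.64). Prpf31, which binds the U4 RNA, had 6.13 RPKM in eye and 9.87 RPKM in retina, 1.61-fold lower (1.37 to 1.89). These 3 genes had nearly the same fold, although Prpf31 was several times less abundant. Prpf3, a U4/U6 protein, had 14.0 RPKM in eye and 18.3 RPKM in retina (1.31-fold lower, 1.21 to 1.42). Prpf6, which bridges U5 and U4/U6, had 29.3 RPKM in eye and 36.8 RPKM in retina (1.26-fold lower, 1.197 to 1.318). Prpf4, the partner of Prpf3, had 12.7 RPKM in eye and 14.0 RPKM in retina. Snrnp40, a U5 protein, was at 22.5 RPKM in eye and 22.4 RPKM in retina. Snrnp27 was the gene above 0 by most, with 28.0 RPKM in eye and 19.0 RPKM in retina (1.48-fold, 1.26 to 1.72), and its length was 376 bases.

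The 7 genes linked to inherited retinal degeneration in humans were Prpf3, Prpf4, Prpf6, Prpf8, Prpf31, Snrnp200 and Rp9. None was called at a fold of 2, against 17.8% of all tested genes higher and 7.95% lower. Prpf31, Snrnp200 and Prpf8 passed a fold of 1.5 towards retina, as did 21.9% of all tested genes in that direction (26.6% in the other). All splicing factor genes together had 7 higher and 7 lower at that fold, and at a fold of 4 only Snrpe was higher and 0 were lower, against 9.07% and 0.0905% of all tested genes. The 7 linked genes had a median log2 fold of -0.39, with 6 of 7 below 0. The median was -0.13 for the 44 other tested splicing factor genes and -1.02 for the rod genes. Rp9, which interacts with a kinase named PIM1, had 8.12 RPKM in eye and 7.89 RPKM in retina, and its interval held a fold of 1 (0.807 to 1.31), as did that of Prpf4. In eye the 7 genes lay between 6.13 and 29.3 RPKM with a median of 14.0, and in retina between 7.89 and 45.7 RPKM with a median of 18.3. In the retina library Snrnp200, Prpf8 and Prpf6 lay above the median of all 52 genes, 22.5 RPKM, and Prpf3, Prpf4, Prpf31 and Rp9 below it. With equal sums Prpf31, Snrnp200, Prpf8 and Prpf3 were called lower, as were 4232 of all tested genes. With lens reads out of the totals Prpf4 lay above 0 (0.06).

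**Figure D3:**
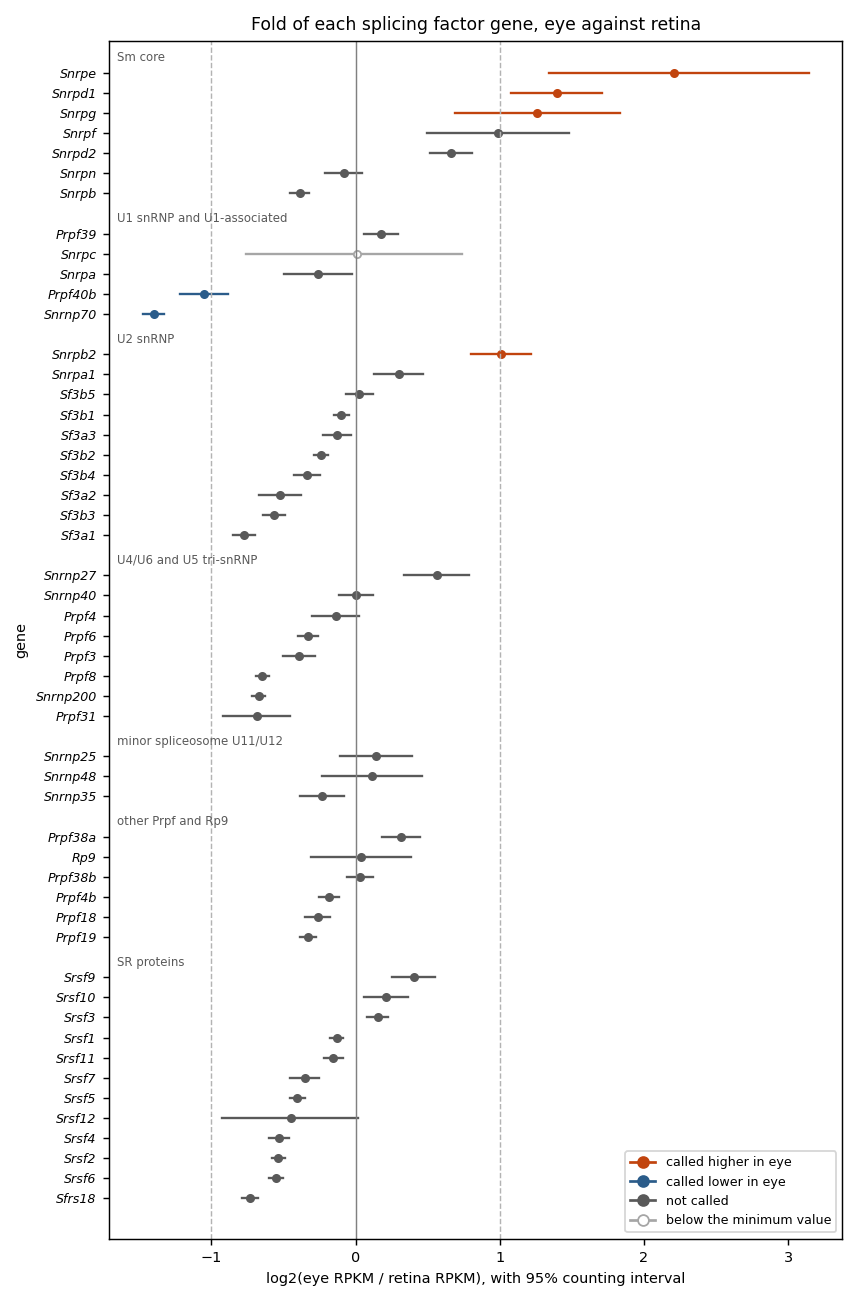
Log2 of the ratio of eye RPKM to retina RPKM for 51 splicing factor genes (points) with its 95% counting interval from recovered reads (bars), grouped by role, with dashed lines at a fold of 2 in each direction. The intervals of 13 genes lie above a fold of 1, those of 28 below it, and those of 10 hold it.

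SR protein genes were the most abundant group and lay mostly below 0. The median of the 12 genes was 38.4 RPKM in eye and 45.9 RPKM in retina, against 19.8 RPKM in eye and 22.5 RPKM in retina for all 52 genes. The median of all genes of the table was 8.75 RPKM in eye and 8.11 RPKM in retina. Srsf2 had 108 RPKM in eye and 157 RPKM in retina, 1.45-fold lower in eye (1.41 to 1.49). Srsf5 had 105 RPKM in eye and 139 RPKM in retina, 1.32-fold lower (1.28 to 1.37). With Snrpb, these 2 had the highest mean level of the 52 genes. Of the 12 SR genes 0 were called, against 17.8% of all tested genes higher and 7.95% lower.

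Other SR genes followed in the same range. Srsf6 had 45.1 RPKM in eye and 66.2 RPKM in retina, and Srsf4, its close relative, 39.2 RPKM in eye and 56.6 RPKM in retina. Srsf7 had 38.7 RPKM in eye and 49.4 RPKM in retina. Srsf11 had 39.8 RPKM in eye and 44.3 RPKM in retina, and Srsf1, the founding member of the family, 38.1 RPKM in eye and 41.7 RPKM in retina. For all of these the eye value was the lower one. Srsf3, the smallest protein of the family, had 28.9 RPKM in eye and 26.02 RPKM in retina, and the table lists 10 pseudogene symbols for it. Srsf10, which can act as a repressor, had 17.3 RPKM in eye and 14.9 RPKM in retina, and Srsf9 20.4 RPKM in eye and 15.4 RPKM in retina. These 3 were the SR genes above 0, with Srsf9 the highest at a log2 fold of 0.40. Srsf12, a repressor related to Srsf10, was the least abundant, with 4.89 RPKM in eye and 6.66 RPKM in retina. Sfrs18, now Pnisr, carries an SR-type name and had 28.6 RPKM in eye and 47.5 RPKM in retina, 1.66-fold lower in eye (1.60 to 1.73). The median log2 fold of the group was -0.38, with 9 of 12 below 0. With equal sums, Srsf2, Srsf4, Srsf5, Srsf6, Srsf12 and Sfrs18 were called lower, as were 4232 of all tested genes.

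The remaining genes differed little. Prpf19, a ubiquitin ligase that activates the spliceosome, had 60.8 RPKM in eye and 76.5 RPKM in retina. Prpf4b, a kinase that acts on tri-snRNP proteins, had 20.3 RPKM in eye and 23.0 RPKM in retina, and Prpf18, a factor of the second step, 9.98 RPKM in eye and 11.97 RPKM in retina. Prpf38b had 19.3 RPKM in eye and 18.9 RPKM in retina, and Prpf38a 16.8 RPKM in eye and 13.5 RPKM in retina. None of these lay beyond a fold of 1.5. The same held for the 3 genes of the minor spliceosome, which removes a rare class of introns. Snrnp25 had 15.3 RPKM in eye and 13.9 RPKM in retina, Snrnp35 17.2 RPKM in eye and 20.2 RPKM in retina, and Snrnp48 10.05 RPKM in eye and 9.26 RPKM in retina. The intervals of Snrnp25 and Snrnp48 held a fold of 1.

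As a whole the 52 genes took 0.286% of the summed RPKM in eye and 0.540% in retina. With lens genes left out of both sums the shares were 0.439% in eye and 0.543% in retina. Of the 52, 46 lay above the median of all genes in eye and 43 in retina, and 8 in eye and 14 in retina lay at or above percentile 90.

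Splicing genes outside the rule were read from lists for comparison. Their counts stand beside 17.8% of all tested genes called higher and 7.95% called lower. Of 48 tested other spliceosome components, 1 was higher in eye (Zcrb1 of the minor spliceosome, 22.1 RPKM in eye and 10.96 RPKM in retina, 2.01-fold, 1.82 to 2.23) and 0 were lower, with a median log2 fold of -0.05. Zcrb1 lay at the threshold: with 1 added to each value, with the trimmed mean, with lens genes out of the sums and with equal sums it was not called. Puf60, Lsm4 and Syf2 were the most abundant of them, and Puf60 had 88.9 RPKM in eye and 108 RPKM in retina, Lsm4 59.9 RPKM in eye and 70.2 RPKM in retina, and Syf2 63.6 RPKM in eye and 54.2 RPKM in retina. Of 21 tested hnRNP genes, whose products bind pre-mRNA and often oppose SR proteins, 0 were called, with a median of -0.01. Hnrnpl had 125 RPKM in eye and 168 RPKM in retina, Hnrnpc 150 RPKM in eye and 135 RPKM in retina, and Hnrnph1 (listed as Hnrph1) 135 RPKM in eye and 142 RPKM in retina. Of 8 kinases that phosphorylate SR proteins, 0 were called and all 8 lay below 0, with a median of -0.28. Clk1, Srpk2 and Clk3 led by level, and Clk1 had 68.0 RPKM in eye and 69.2 RPKM in retina, Srpk2 33.2 RPKM in eye and 38.5 RPKM in retina, and Clk3 22.7 RPKM in eye and 32.5 RPKM in retina.

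Lists of neuronal and of epithelial and muscle splicing regulators had larger median folds than the splicing factor genes as a whole. Such lists are picked for restriction to a tissue, so that difference was built into the choice and carries no further weight. Of 17 tested neuronal regulators, 7 were lower in eye (Srrm3, Celf3, Celf6, Rbfox3, Celf4, Celf5 and Nova2) and 0 were higher, with a median of -0.93. Of all tested genes, 7.95% were lower and 17.8% higher. Msi1, an RNA-binding protein of photoreceptors and neural progenitors, had 156 RPKM in eye and 297 RPKM in retina, short of the threshold, Khdrbs3 had 74.3 RPKM in eye and 69.7 RPKM in retina, and Celf4 29.9 RPKM in eye and 64.2 RPKM in retina. Of 7 epithelial and muscle regulators, 5 were higher in eye and 0 lower, with a median of 2.78. The epithelial regulator Esrp1 had 7.87 RPKM in eye and was listed at 0 in retina, and Esrp2 had 6.62 RPKM in eye and 0.232 RPKM in retina. Rbm24, of muscle and lens, had 24.6 RPKM in eye and 2.10 RPKM in retina (11.7-fold, 10.3 to 13.3), Rbm38 15.8 RPKM in eye and 2.22 RPKM in retina, and Rbm20, of striated muscle, 1.40 RPKM in eye and 0.426 RPKM in retina. Mbnl1 and Celf2, which many tissues express, were not called in the values as deposited: Mbnl1 had 36.6 RPKM in eye and 48.9 RPKM in retina, and Celf2 22.7 RPKM in eye and 38.2 RPKM in retina. With lens reads out of the totals 3 of the 17 neuronal regulators were lower, and with equal sums 11 were. Over all tested genes these settings gave 560 and 4232 lower calls. No test of the difference between these lists and the 52 genes was made.

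**Figure D4:**
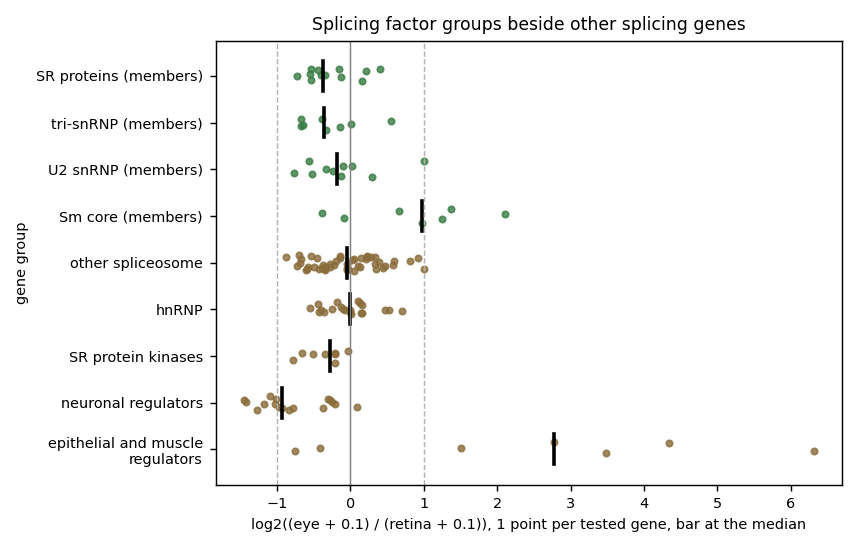
Log2((eye + 0.1) / (retina + 0.1)) of tested genes in 4 groups of splicing factor genes and 5 lists of other splicing genes, with 1 point per gene, a black bar at each median and dashed lines at a fold of 2. The Sm core lies at a median of 0.97, the neuronal regulators at -0.93 and the epithelial and muscle regulators at 2.78, while the other groups lie between -0.38 and -0.01.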

How the data were processed

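The labels name 4 samples of wild-type Long Evans rat eye and retina, 2 technical replicates per tissue, with RNA of 5 rats pooled per library, and they were grouped by title. GSNAP and HTSeq with build rn4 are named in the submitters' processing notes; not given in the sources used here are versions, settings, annotation and strand use. The authors deposited 1 column of decimals per tissue, taken as RPKM because the values of 13980 of 13980 genes searched are whole reads over a whole length (100 to 30000 bases) and the totals 28071917 and 51944762, within the rounding of the printed decimals. These totals were shared by 109 and 106 short genes, against 4 for the next. Recovered reads are the smallest that fit and may be divided by a common factor; they gave exact 95% Clopper-Pearson intervals of the fold, which cover counting error only. They summed to 71.4% of the total in eye and 63.7% in retina.

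Each file held 14533 rows, 7 with ND, and 41 names stood on more than 1 row, of which the one with most decimals was kept. The 401 names with at most 5 decimals were kept, without reads. No count model was used, since values are normalized and each tissue has 1 column. Members and lists were chosen with earlier results of these data known. All members but 1, which enters the counts and medians but is not reported here, are named; fuller statistics went to those called, the 5 highest and 5 lowest folds, the 3 highest means and the genes linked to retinal degeneration, and from other lists to the 3 highest means and, where 5 or fewer were called, those called. The steps were tested on simulated data. Python 3.11.15, pandas 2.3.3, NumPy 2.4.6 and SciPy 1.17.1 were used.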

Additional observations from a re-analysis of the deposited data

How the results depend on the processing

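The settings, lens reads taken out of the read totals and splicing factor genes under 1000 bases left out, were chosen after the data were seen. Of the splicing factor genes, 4 higher and 2 lower as reported, 7 and 7 were called at a fold of 1.5, 1 and 0 at a fold of 4, and 1 and 16 with equal summed values. With lens reads out of the totals 5 were higher and 1 was lower, and without genes under 1000 bases 0 and 1, with a relative median of -0.25 in place of -0.14. Over the 5 lists of other splicing genes together, 6 higher and 7 lower as reported, 10 and 21 were called at a fold of 1.5, and 0 were lower at a fold of 4. There, 34 were lower with equal sums and 3 with lens reads out of the totals. These follow from how the settings are built, since a threshold or a shift of all log2 ratios moves the calls. Adding 1 or 0.01, no minimum or a minimum of 5, the trimmed mean, the median of ratios, lens genes out of the sums and rows of few decimals left out kept the counts over all splicing factor genes and over the 5 lists together within 1.5 times. Over all tested genes, lower calls numbered 655 with 1 added, against 1054 as reported, and higher calls 1471 with a minimum of 5, against 2366. Equal sums gave 1363 higher and 4232 lower calls over all tested genes, and lens reads out of the totals 2861 and 560. Among splicing factor genes, Snrpb2 alone lost its call with 1 added, with the trimmed mean and with lens genes out of the sums, which left 0 of 10 U2 genes called, and Zcrb1 lost its call under the same settings. Equal sums changed the sign of 13 of 51 log2 folds and lens reads out of the totals that of 7, of which none had been called. No paired analysis was possible because each tissue has 1 column of values, and no replicate could be left out. Depth limits Snrpe, Snrpg and Snrpf, with as few as 16 to 75 reads.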
